A study of Mus musculus with 9 samples.

Results

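The pluripotency and reprogramming factor genes described here were 10 genes, Pou5f1, Nanog, Sox2, Klf4, Myc, Lin28a, Sall4, Esrrb, Tfcp2l1 and Zfp42, chosen by name out of 21938 protein-coding genes on the assembled mouse chromosomes. Open chromatin was mapped by ATAC-seq, a transposase assay, in primary mouse embryonic fibroblasts (MEFs) at a passage below 8. WT MEFs gave 3 libraries and untransfected Anp32e null MEFs, from Anp32e−/− embryos that lack the H2A.Z chaperone ANP32E, gave 3. The siRNA groups were made in the null cells, with 1 library for the non-targeting (NT) control siRNA and 2 for a pool of 4 siRNAs against the histone variant H2A.Z. Both transfected groups therefore carry the null genotype, and NT siRNA, not WT, is the control for H2A.Z siRNA. The authors called peaks on the merged libraries of each group, so each group is 1 peak list without replicate values, no test between groups was possible, and every difference below is a description of those lists. The members were every peak that overlapped a window from 10 kb before to 10 kb after one of the 10 genes. There were 32 such peaks of 84040 in WT, 29 of 82567 in Anp32e null, 30 of 89272 with NT siRNA and 34 of 108409 with H2A.Z siRNA, and merging those that overlapped or touched gave 40 sites of 128522 in all. The level of a site in a list is that of its highest summit there, which can lie at a different base in each list.

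The transcription factors OCT4 (encoded by Pou5f1), SOX2 and NANOG hold embryonic stem cells in the pluripotent state and bind one another's enhancers. OCT4, SOX2, KLF4 and MYC are the factors with which fibroblasts are reprogrammed to pluripotent cells. In fibroblasts the stem cell genes of this network are silent, whereas KLF4 and MYC also act in many somatic cells and have promoters in use there.

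In WT MEFs, 6 of the 10 genes had a peak within 1 kb of an annotated transcription start site (TSS), against 67.2% of all protein-coding genes. Sox2, Klf4, Myc, Esrrb and Tfcp2l1 had one in all 4 lists. Nanog, Sall4 and Zfp42 had none in any list, as did 28.8% of protein-coding genes, and Pou5f1 and Lin28a had one in some lists and not in others. The members with such a peak numbered 5 in Anp32e null, 6 with NT siRNA and 7 with H2A.Z siRNA, against 66.7%, 66.8% and 68.4% of all protein-coding genes. No member gained a TSS peak in Anp32e null over WT (1.40% of all genes did), and Lin28a alone was called in WT and not in null (1.89% of all genes). Pou5f1 alone was called with H2A.Z siRNA and not with NT siRNA (2.06% of all genes), and no member went the other way (0.483% of all genes). These counts of 0 or 1 in 10 genes are too small to set apart from the background shares.

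The promoters of the members differed in base composition, and 5 of them are shown for that reason. The 250 bases before the RefSeq start of each gene (GRCm38.p6, the assembly of mm10) are written 5′ to 3′ on the gene's own strand, with every CpG in capitals. Nanog and Zfp42 had no TSS peak in any list and Pou5f1 had none at this start, whereas Sox2 and Tfcp2l1 had peaks here in all 4 lists.
Nanog (chr6:122707239-122707488, plus strand): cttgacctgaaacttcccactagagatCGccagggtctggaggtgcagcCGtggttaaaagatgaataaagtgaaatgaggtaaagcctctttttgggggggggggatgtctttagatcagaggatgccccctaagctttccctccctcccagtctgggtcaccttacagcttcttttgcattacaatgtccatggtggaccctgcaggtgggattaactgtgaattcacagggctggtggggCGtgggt
Zfp42 (chr8:43307010-43307259, minus strand): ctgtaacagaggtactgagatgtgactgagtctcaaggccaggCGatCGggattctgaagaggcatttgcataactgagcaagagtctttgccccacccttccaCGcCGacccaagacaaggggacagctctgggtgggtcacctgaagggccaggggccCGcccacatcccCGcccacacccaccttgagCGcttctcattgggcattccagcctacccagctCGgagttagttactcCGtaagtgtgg
Pou5f1 (chr17:35505782-35506031, plus strand): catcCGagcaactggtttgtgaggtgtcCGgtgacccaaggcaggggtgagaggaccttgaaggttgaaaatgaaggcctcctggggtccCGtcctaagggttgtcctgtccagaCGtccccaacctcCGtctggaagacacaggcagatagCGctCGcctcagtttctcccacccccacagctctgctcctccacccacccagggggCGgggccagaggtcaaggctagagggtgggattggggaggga
Sox2 (chr3:34649745-34649994, plus strand): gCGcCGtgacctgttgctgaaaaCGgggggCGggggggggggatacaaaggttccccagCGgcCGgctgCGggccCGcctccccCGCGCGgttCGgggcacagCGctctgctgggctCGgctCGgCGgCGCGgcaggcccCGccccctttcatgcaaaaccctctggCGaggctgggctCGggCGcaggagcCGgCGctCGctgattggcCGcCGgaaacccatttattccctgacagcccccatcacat
Tfcp2l1 (chr1:118627695-118627944, plus strand): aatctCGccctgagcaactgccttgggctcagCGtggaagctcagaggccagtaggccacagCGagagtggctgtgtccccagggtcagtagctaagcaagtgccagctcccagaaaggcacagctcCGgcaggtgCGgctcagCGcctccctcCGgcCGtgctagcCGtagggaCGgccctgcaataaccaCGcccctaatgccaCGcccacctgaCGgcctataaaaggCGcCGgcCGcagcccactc
The stretches held 3 CpGs in Nanog, 8 in Pou5f1 and 9 in Zfp42, against 16 in Tfcp2l1 and 27 in Sox2.

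Over the whole 300-base entry, from 250 bases before to 50 after the start, 8 of the 10 genes were found in the RefSeq promoter table, with 11 entries. The ratio of CpG observed over expected was 0.97 at Klf4, 0.82 at Sox2 and 0.66 at Tfcp2l1, which had peaks there in all 4 lists. It was 0.19 and 0.18 at the 2 Nanog starts, 0.27 at the upstream Esrrb start, 0.35 at Lin28a, 0.37 and 0.39 at the 2 Pou5f1 starts and 0.44 at Zfp42, all without a WT peak within 1 kb. The internal Esrrb start, at 0.32, was an exception and had a weak peak in every list. Among all 32841 promoters of the table, a peak lay within 1 kb of the start in WT for 20.6% of those with a ratio below 0.4, 71.8% of those from 0.4 to 0.75 and 95.9% of those at 0.75 or more. The same 3 shares were 19.8%, 71.4% and 96.0% in null, 21.1%, 71.1% and 95.8% with NT siRNA, and 24.6%, 72.9% and 96.1% with H2A.Z siRNA. Zfp42, at 0.44, lay in the class from 0.4 to 0.75 and, unlike most promoters of that class, had no peak in any list.

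**Figure D1:**
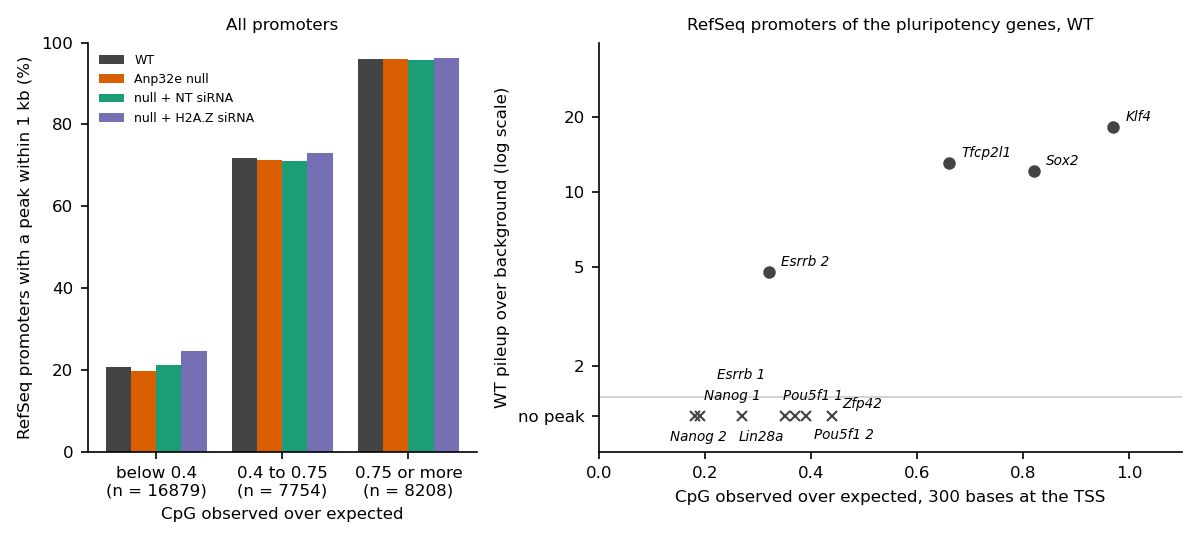
CpG content and promoter peaks. Left, the share of RefSeq promoters (%) with a peak within 1 kb, by CpG observed over expected and list; right, each promoter entry of the pluripotency genes, by its CpG ratio and by the WT summit pileup over background (log scale, crosses mark no peak). The entries with a ratio of 0.66 or more have WT peaks of 12.1 to 18.3 times background, and 1 of the 8 entries below that has one.

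A level is given below as the summit pileup, the number of fragments over the highest base of a peak, and as its fold over the genome-wide background of its list. That background was 8.85 fragments in WT, 5.12 in null, 3.88 with NT siRNA and 17.8 with H2A.Z siRNA, so depth differed between lists. Where the local background equalled the genome-wide one, the lowest pileup called was 19 in WT, 13 in null, 11 with NT siRNA and 32 with H2A.Z siRNA, or 2.15, 2.54, 2.83 and 1.80 times background. These floors hold for the 31.9% to 36.0% of peaks at the genome-wide background and are higher where the local background is, as in the Pou5f1 window, where it reached 10.0 times the genome-wide one with NT siRNA. A gene without a peak is one where no signal passed the calling threshold, and the lists do not record signal below it. The median of all peaks was 5.65 times background in WT, 8.41 in null, 13.9 with NT siRNA and 8.75 with H2A.Z siRNA. In the cells' own markers, 11 of 12 fibroblast genes had a TSS peak in every list (Lum had none), against 1 of 4 germ cell genes in each list and 1 or 2 of 4 blood genes. Of 5 epithelial genes, 3 had one in WT and in null and all in both siRNA lists, where Krt18 and Cldn4 were added, and of 4 endothelial genes all had one except Pecam1 in null. The part of other cells in the weak member sites was not tested. An ATAC peak marks open chromatin and not transcription.

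**Figure D2:**
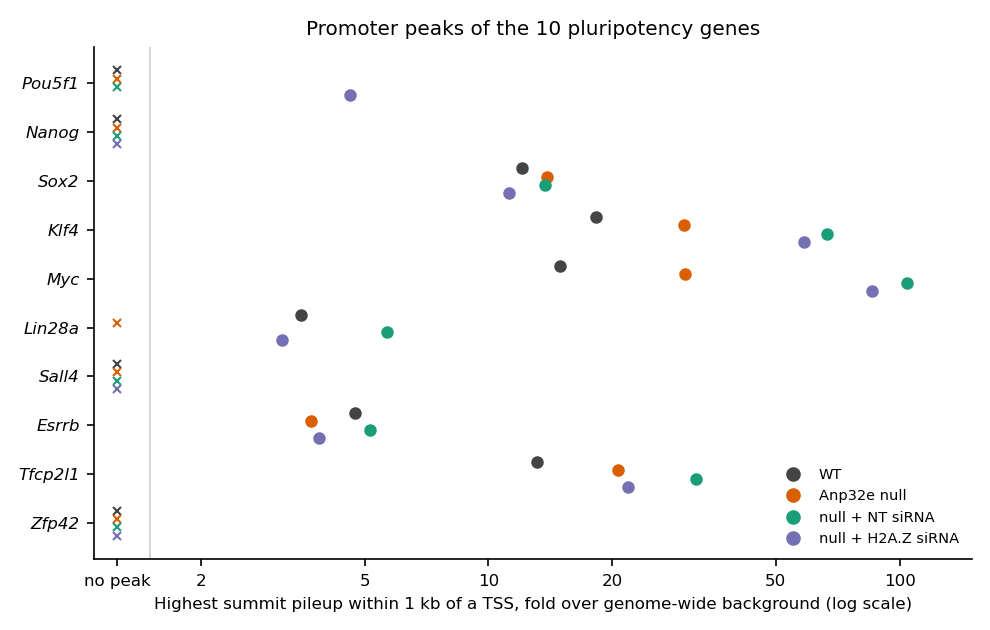
Promoter peaks of the 10 genes. Each point is the highest summit pileup within 1 kb of a TSS of the gene, in fold over the genome-wide background of its list (log scale), and crosses mark lists without such a peak. Nanog, Sall4 and Zfp42 have only crosses, Pou5f1 has 1 point at 4.60 with H2A.Z siRNA, and Klf4 and Myc reach 66.7 and 104 with NT siRNA.

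Pou5f1 (chr17:35506018-35510772, plus strand, ENSMUSG00000024406.16) encodes OCT4, the factor without which the pluripotent state is lost. None of its 6 annotated starts had a peak within 1 kb in WT, Anp32e null or NT siRNA. In H2A.Z siRNA a peak of 548 bp was called at chr17:35507885-35508432, within 1 kb of every start but the first. Its summit lay in an intron, 2059 bp after the gene's 5′ end and 595 bp after the nearest annotated start. The pileup was 82 over a local background of 34.0, or 4.60 times the genome-wide background and 2.37 times the local one. That fold stood at percentile 10.4 of all H2A.Z siRNA peaks, so the site was among the weak ones of the deepest list. Had a site of this height been sampled at the depth of NT siRNA, it would have passed that list's threshold with a chance of 63.3%, by an exact binomial calculation. Such chances, here and below, match the genome-wide background alone and start from a site picked because 1 list of the pair called it. When the lists were cut to the same number of peaks, 82567 each, the call was lost and no member was left with a peak with H2A.Z siRNA and not with NT siRNA.

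The Pou5f1 window held 4 further sites, and they lay outside the gene. A site at -4611 bp from the 5′ end had a pileup of 13 with NT siRNA and 75 with H2A.Z siRNA, and one at -2261 bp was called with H2A.Z siRNA alone with a pileup of 51. Both are intergenic, and neither WT nor untransfected null had a peak there. The strongest site, at 11060 bp, lay at the starts of the neighbouring genes Tcf19 and Cchcr1, with pileups of 116 in WT, 105 in null, 340 with NT siRNA and 1292 with H2A.Z siRNA. A merged site inside Tcf19 held a null peak with its summit at 7122 bp and a pileup of 47, and an NT siRNA peak at 8015 bp with 84, which do not overlap each other and are joined by the H2A.Z siRNA peak, with its summit at 7122 bp and a pileup of 372. WT had no peak there. The highest pileups of the Pou5f1 window were thus at its neighbours, and the first start of Pou5f1 had no peak in any list.

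Nanog (chr6:122707489-122714633, plus strand, ENSMUSG00000012396.12) encodes a homeodomain factor that stabilises the pluripotent state. None of its 3 starts, which lie within 79 bp of one another, had a peak in any list, and nor had any other part of the gene body. A strong site lay upstream, at -4770 bp from the 5′ end, in intergenic DNA with no annotated start of any gene within 1 kb. Its pileup was 225 in WT, 273 in null, 288 with NT siRNA and 1015 with H2A.Z siRNA, or 25.4, 53.4, 74.2 and 57 times background. In each list its fold over local background stood between percentiles 91.1 and 95.5 of all peaks, and in WT and null it had the highest such rank of any peak in the 10 windows. A site at 12621 bp, beyond the 3′ end, was called in all lists at 4.97, 6.84, 16.2 and 11 times background. In all 4 lists Nanog thus had no promoter peak and a strong upstream one.

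Sox2 (chr3:34650405-34652461, plus strand, ENSMUSG00000074637.7) encodes the HMG-box partner of OCT4 and is also a factor of neural precursors. Its single coding exon lies inside an intron of the long non-coding RNA gene Sox2ot, and ATAC-seq carries no strand, so peaks there cannot be assigned to either gene. The TSS peak spanned 2138 bp in WT, 2188 bp in null, 1622 bp with NT siRNA and 2236 bp with H2A.Z siRNA, with pileups of 107, 71, 53 and 200. These were 12.1, 13.9, 13.7 and 11.2 times background. The highest base lay at -421 bp in WT, 400 bp in null, 634 bp with NT siRNA and -489 bp with H2A.Z siRNA, so each level is that of a different base. Ranked among all protein-coding genes with a TSS peak, Sox2 fell at percentile 35.2 in WT, 25.2 in null, 11.8 with NT siRNA and 14.6 with H2A.Z siRNA. A weak site at -7677 bp, within 1 kb of the start of Gm42692, was called in every list with pileups of 44, 22, 16 and 65. A site at -2486 bp was called with H2A.Z siRNA alone, with a pileup of 65.

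Klf4 (chr4:55527143-55532466, minus strand, ENSMUSG00000003032.8) encodes a zinc finger factor of epithelial and stem cells and is also induced by growth signals in fibroblasts. It had 2 strong TSS sites, one at -493 bp from the gene's 5′ end and one 1983 bp after it, in coding sequence. The upstream site had pileups of 162 in WT, 153 in null, 238 with NT siRNA and 934 with H2A.Z siRNA, or 18.3, 29.9, 61.3 and 52.4 times background. The site in the gene had pileups of 140, 110, 259 and 1040, or 15.8, 21.5, 66.7 and 58.4 times background. The higher of the 2 placed Klf4 near the middle of all protein-coding genes with a TSS peak, between percentiles 52.3 and 56.3 in the 4 lists. A distal site at -9356 bp was called in all lists, and one at 6144 bp, past the gene's 3′ end, with H2A.Z siRNA alone with a pileup of 213. A site of that height would have been called at NT siRNA depth with a chance of 97.9%.

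Myc (chr15:61985391-61990374, plus strand, ENSMUSG00000022346.15) encodes the growth-promoting bHLH factor MYC. All of its 6 starts lay within 1 kb of a peak in all 4 lists, as 4 adjacent peaks in WT and in null, 2 with NT siRNA and 1 of 3955 bp with H2A.Z siRNA. The highest summit lay between 1697 and 1705 bp after the 5′ end, with pileups of 132 in WT, 154 in null, 402 with NT siRNA and 1526 with H2A.Z siRNA. These were 14.9, 30.1, 104 and 85.6 times background, and placed Myc at percentile 44.6 of protein-coding genes with a TSS peak in WT, 56.5 in null, 77.2 with NT siRNA and 78.0 with H2A.Z siRNA. The local background around Myc was itself high, up to 3.78 times the genome-wide value in WT, 7.21 in null, 20.9 with NT siRNA and 20.2 with H2A.Z siRNA. In NT siRNA and H2A.Z siRNA this ranked at percentile 99.8 of all peaks. Over that local background the fold at the highest summit was 3.94, 4.19, 4.91 and 4.22, at percentiles 47.7, 34.9, 29.7 and 38.6 of all peaks in each list. These ranks are among peaks, and those of the pileup among genes, so the 2 sets do not compare directly.

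**Figure D3:**
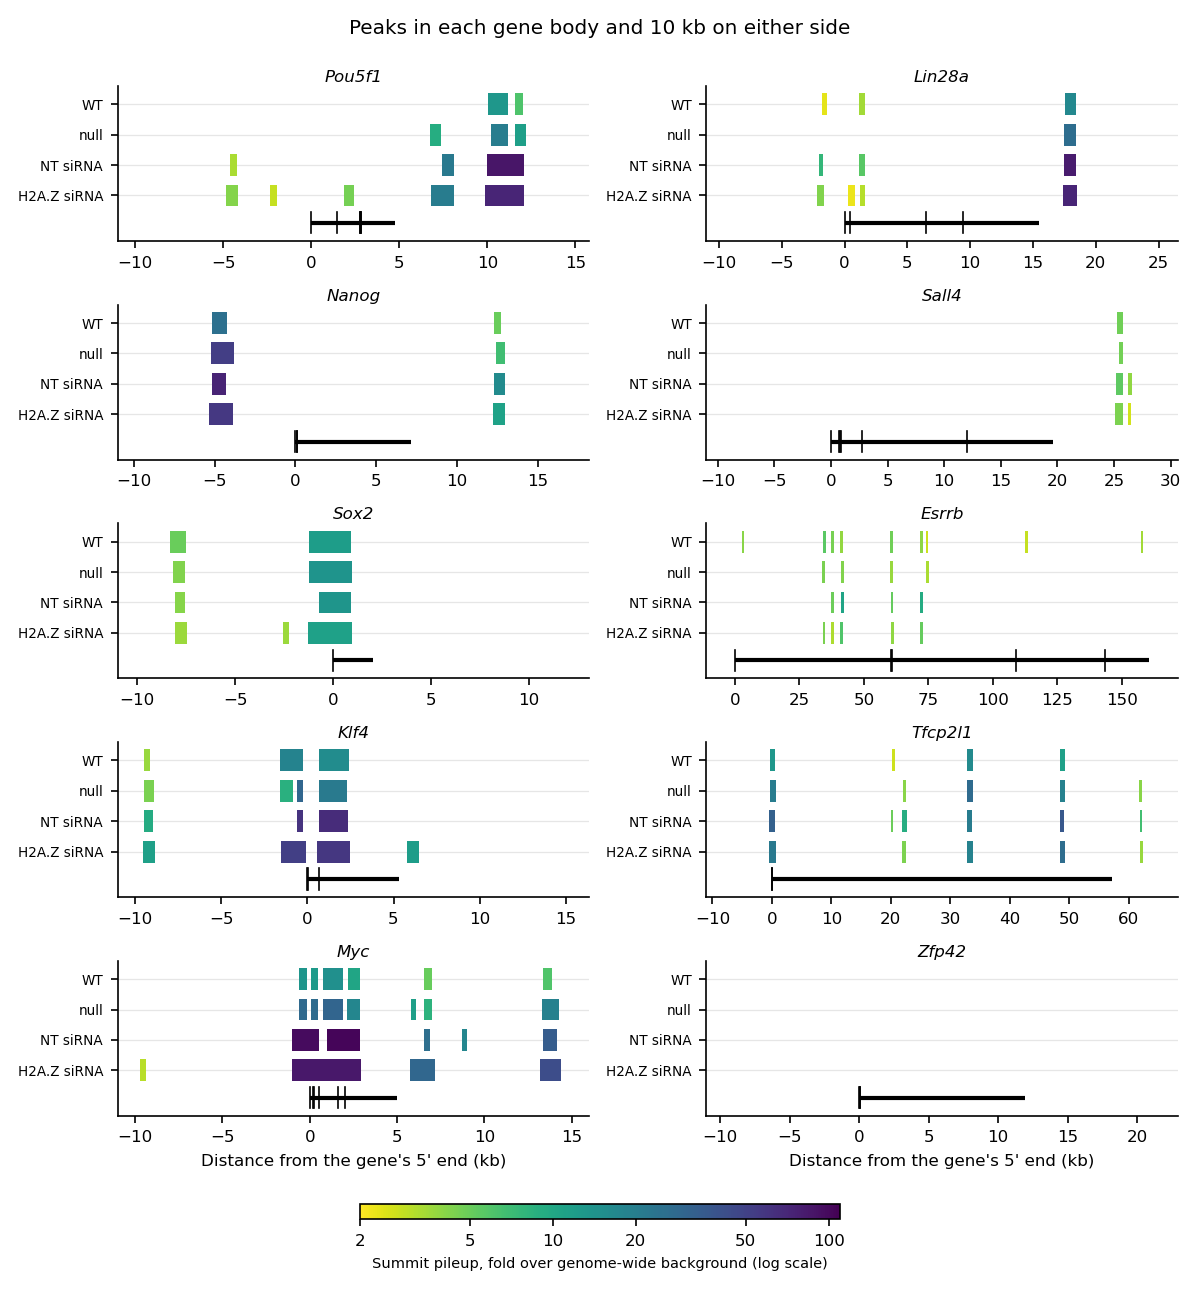
Peaks in the gene body and 10 kb on either side of each gene. Boxes are peaks by list, placed by distance from the gene's 5′ end (kb) and coloured by summit pileup over genome-wide background (log scale), narrow peaks being drawn wider for visibility. The black line is the gene and ticks are its annotated starts; Zfp42 has no box, Nanog and Sall4 have none over the gene, and Pou5f1 has 1 over the gene, with H2A.Z siRNA.

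Lin28a (chr4:134003330-134018841, minus strand, ENSMUSG00000050966.9) encodes an RNA-binding protein that blocks the maturation of let-7 and is one of the alternative reprogramming factors. A weak site in its first part, with WT summit 1312 bp after the 5′ end in an intron, was within 1 kb of its start at 459 bp and also of the start of the transcript Gm13061. The pileup there was 31 in WT, 22 with NT siRNA and 56 with H2A.Z siRNA, or 3.5, 5.67 and 3.14 times background, and no peak was called in untransfected null. A WT site of this height would have passed the threshold of the null list with a chance of 94.6%. NT siRNA cells share the null genotype and had the peak, so it was missing from 1 of the 3 lists of null cells. With 82567 peaks from each list, the H2A.Z siRNA call was lost as well. Even where called, the Lin28a peak ranked low, at percentiles 2.29 to 3.97 of protein-coding genes with a TSS peak. H2A.Z siRNA had a further, weaker peak at 414 bp, with a pileup of 40. With the promoter limited to 500 bp, Lin28a had no TSS peak in WT, null or NT siRNA and had this one with H2A.Z siRNA. Upstream of the gene, WT had a peak at -1471 bp with a pileup of 21, NT siRNA one at -2020 bp with 30 and H2A.Z siRNA one at -1939 bp with 76. The WT peak overlapped the other 2 in part, and its summit lay outside both. Null had none, and the WT peak would have been called at null depth with a chance of 27.8%. The strongest site of the window, at 17853 bp, belonged to the promoter of the neighbour Dhdds, with 17.0, 26.6, 80.7 and 73.1 times background.

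Sall4 (chr2:168748332-168767943, minus strand, ENSMUSG00000027547.17) encodes a zinc finger factor of stem cells and early embryos. None of its 6 starts and no part of the gene had a peak in any list. The 2 sites in its window, at 25581 and 26449 bp, lay past the 3′ end, within 1 kb of starts of the neighbour Atp9a. The first was called in all lists at 4.75, 4.69, 5.41 and 4.38 times background, and the second in both siRNA lists only, at 3.87 and 2.64.

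Esrrb (chr12:86361117-86521628, plus strand, ENSMUSG00000021255.17) encodes an orphan nuclear receptor that can stand in for NANOG in self-renewal. It is the longest of the 10 genes, 160512 bp, and held 9 sites, all inside the gene. The upstream start was without a peak in all 4 lists. The called starts were internal, at 60527 and 60766 bp, under 1 peak with pileups of 42 in WT, 19 in null, 20 with NT siRNA and 69 with H2A.Z siRNA, or 4.75, 3.71, 5.15 and 3.87 times background. This put Esrrb at percentile 8.87 of protein-coding genes with a TSS peak in WT, 1.88 in null, 2.36 with NT siRNA and 3.97 with H2A.Z siRNA. With peaks limited to a −log10 q of 5 or more, the null call was lost and the members called in WT and not in null became 2. All 9 sites were weak, between 2.71 and 5.54 times background in WT where called, and none passed 10.6 times background in any list. WT had 9 peaks in Esrrb, whereas null had 4, NT siRNA 4 and H2A.Z siRNA 5.

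Tfcp2l1 (chr1:118627945-118685168, plus strand, ENSMUSG00000026380.10) encodes a CP2-family factor of naive stem cells that is also made in epithelia of the kidney. Its TSS peak had pileups of 116 in WT, 106 in null, 124 with NT siRNA and 388 with H2A.Z siRNA, or 13.1, 20.7, 32.0 and 21.8 times background. Over local background its fold was 8.38, 10.8, 15.8 and 13.1, at percentiles 84.3, 85.7, 91.0 and 88.0 of all peaks, the highest of the members' TSS peaks in each list. A pair of intron sites was of similar height in WT, null and H2A.Z siRNA. The one at 33254 bp had 16.3, 27.4, 20.9 and 18.9 times background and the one at 48802 bp had 11.5, 19.2, 36.8 and 26.7. Weak sites at 20211, 22368 and 62140 bp, the last past the gene's 3′ end, were each called in 2 or 3 lists.

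Zfp42 (chr8:43295063-43306980, minus strand, ENSMUSG00000051176.6) encodes REX1, a zinc finger protein widely used as a marker of undifferentiated stem cells. No peak of any list lay anywhere in the gene or within 10 kb on either side. It was the only member without a site.

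Anp32e null was compared with WT at the sites called in each list. Of 31 member sites in either list, 20 were called in both, 3 in null alone (9.68%, against 14.6% of all merged sites) and 8 in WT alone (25.8%, against 16.4%). The 3 null-only sites were the Tcf19 site in the Pou5f1 window and the Tfcp2l1 sites at 22368 and 62140 bp, with pileups of 47, 21 and 21. The Tcf19 peak stood over a local background of 18.9, and its fold of 2.41 was at percentile 1.95 of all null peaks. The Tfcp2l1 peaks were each at percentile 24.6. Both Tfcp2l1 sites were also called in both siRNA lists. Of the 8 WT-only sites, 5 lay in Esrrb, 2 in the Lin28a window and 1 in Tfcp2l1, and their WT pileups ran from 21 to 40. Scaled to the genome-wide background of null, 5 of these 8 would have been called with a chance above 90%, 4 of them in Esrrb. Only the background was matched, and WT thinned in this way kept 77912 peaks, against 82567 in null. The 8 sites were also picked for a call in WT and none in null. The part of depth in the missing calls was not tested. In NT siRNA, which shares the null genotype, 5 of the 8 merged sites held a peak, and 3 Esrrb sites, at 3306, 113011 and 157628 bp, were called in WT only. Some of the 5 held summits that lay apart, at 20570 bp in WT and 20211 bp with NT siRNA in Tfcp2l1. Upstream of Lin28a they lay at -1471 and -2020 bp, so these need not be the same peak.

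At the 20 shared sites the ratio of null to WT was taken between pileups over background, on the log2 scale, with an exact binomial 95% interval that covers counting error only. All 66194 sites shared across the genome had a median of 0.59 on this scale. A general gain of accessibility and a higher share of fragments in peaks cannot be told apart in it, and ratios are given relative to it. The median of the member sites was -0.04. Past 0.5 in either direction, the size used in the study, 2 of 20 were higher in null (10.4% of all shared sites) and 4 lower (14.0% of all). Without centring 10 were higher and none lower, and relative to the strongest 1000 shared sites, whose median was 0.80, 1 was higher and 8 lower.

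Both higher sites lay downstream of Myc, but only the first held when summits were matched. The one at 13651 bp, in intergenic DNA, had pileups of 53 in WT and 98 in null, a ratio of 1.09 (interval 0.59 to 1.60). The merged site at 6637 bp had a ratio of 0.61 (0.03 to 1.20) that set a null peak at 6005 bp, with a pileup of 60, against a WT peak at 6640 bp, with 45. The null peak at 6618 bp had a pileup of 43, and against it the ratio was 0.12 (-0.52 to 0.76). At the Myc starts the ratio was 0.42 (0.08 to 0.77), but by fold over local background this summit ranked at percentile 47.7 in WT and 34.9 in null, and all shared sites of chromosome 15 had a median of 0.18. At the upstream Nanog site it was 0.48 (0.22 to 0.74), just under the threshold. Because a merged site can hold different summits, peaks were also paired by position, where their summits were mutually nearest and within 200 bp, a choice made after seeing the data. Of 23 such member pairs 2 were then higher, the Myc peaks at 13651 bp and, at 0.50 (0.13 to 0.88), at 248 bp, and the same 4 sites were lower as before, against 10.2% and 13.9% of all 62660 pairs.

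The 4 lower sites were the internal Esrrb start at -0.95 (-1.81 to -0.13), the Esrrb site at 34518 bp at -0.89 (-1.68 to -0.15), the upstream Sox2 site at -0.80 (-1.61 to -0.03) and the Atp9a promoter in the Sall4 window at -0.61 (-1.40 to 0.15). All 4 were weak, and the ratio moved with the level across the genome. Shared sites below 5 times background, as the geometric mean of both lists, had a median of -0.22 with 25.0% lower, and those at 20 times or more had a median of 0.14 with 2.19% lower. The part of this in the member values was not tested. At the promoters of Klf4, Tfcp2l1 and Sox2 the intervals included 0, with 0.12 (-0.21 to 0.44) and -0.15 (-0.52 to 0.22) at the 2 Klf4 sites, 0.07 (-0.33 to 0.46) at Tfcp2l1 and -0.39 (-0.85 to 0.05) at Sox2, where the summits of the lists lay apart and had no pair within 200 bp. The signs depended on the centring, since Sox2 stood at 0.20 without it and the upstream Klf4 site and Tfcp2l1 at -0.09 and -0.14 relative to the strongest 1000 sites.

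**Figure D4:**
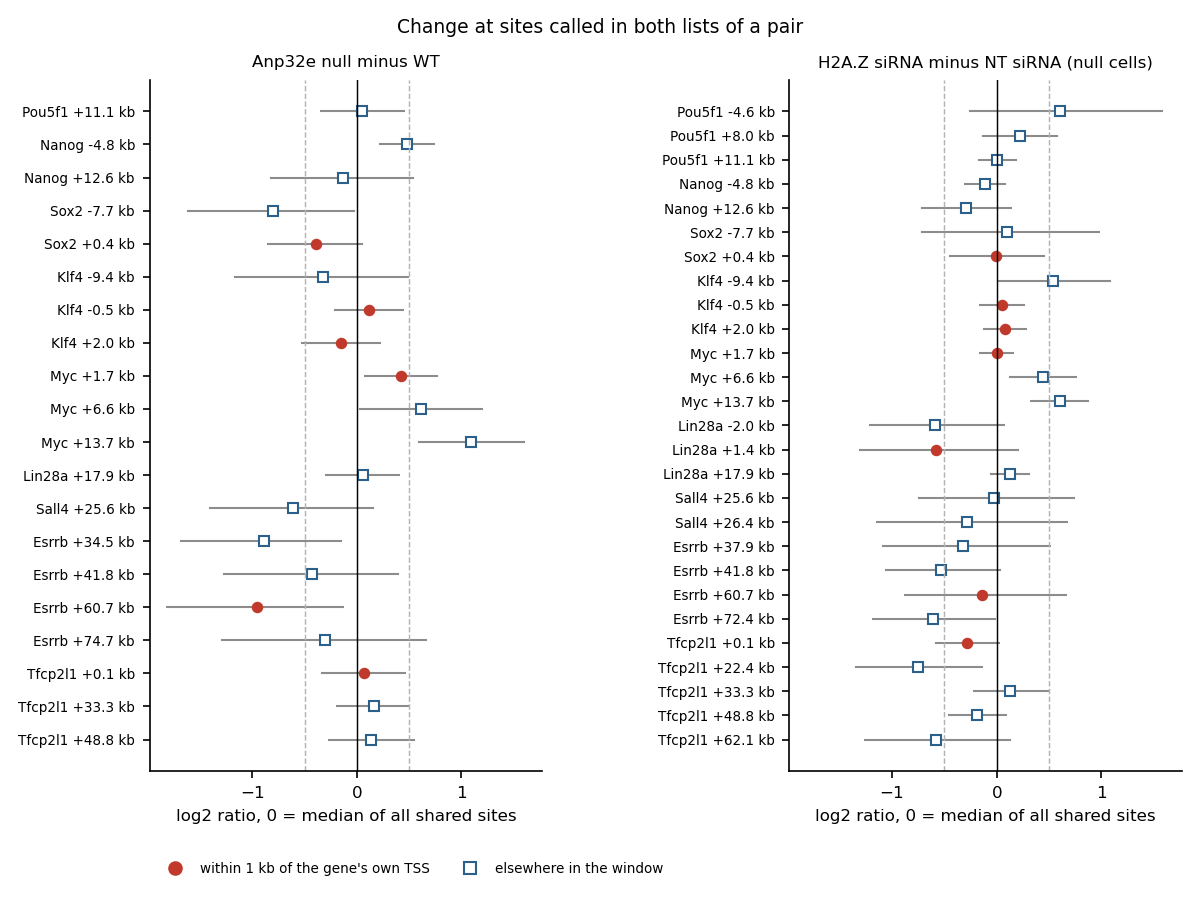
Change at member sites called in both lists of a pair. Points are log2 ratios of pileup over background, with 0 at the median of all shared sites of the genome, bars are exact binomial 95% intervals for counting error, and dashed lines mark 0.5 in either direction; labels give the gene and the summit's distance from its 5′ end. Between null and WT the Myc site at 13651 bp stands highest at 1.09 and the internal Esrrb start lowest at -0.95, the Myc point at 6637 bp sets different summits against each other, and between H2A.Z siRNA and NT siRNA the promoters of Klf4, Myc and Sox2 lie between -0.01 and 0.08.

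H2A.Z siRNA was compared with NT siRNA in the same way, both in Anp32e null cells. Of 36 member sites in either list, 27 were called in both, 7 with H2A.Z siRNA alone (19.4%, against 23.5% of all merged sites) and 2 with NT siRNA alone (5.56%, against 4.16%). The 7 were the Pou5f1 intron site and the site at -2261 bp, the Sox2 site at -2486 bp, the Klf4 site at 6144 bp, the Myc site at -9583 bp, the Lin28a site at 414 bp and the Esrrb site at 34518 bp. The list with H2A.Z siRNA came from 2 libraries and was the deepest, whereas NT siRNA was 1 library. At NT siRNA depth 2 of the 7, the Klf4 and the Esrrb site, would have been called with a chance above 90%, and 3 with a chance below 50%. With 82567 peaks from each list, the sites in 1 list alone numbered 3 for H2A.Z siRNA and 4 for NT siRNA. With H2A.Z siRNA pileups thinned to the genome-wide background of NT siRNA, they numbered 4 and 2. Only the background was matched, and the thinned list kept 95262 peaks, against 89272 with NT siRNA. The Esrrb site was also called in WT and in untransfected null. The 2 sites with NT siRNA alone were the Myc site at 8899 bp, with a pileup of 68, and the Tfcp2l1 site at 20211 bp, with 19.

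At the 27 shared sites the ratio of H2A.Z siRNA to NT siRNA had a median of -0.03 relative to all 81659 shared sites, whose own median was -0.27. Past 0.5, 3 sites were higher (11.6% of all shared sites) and 6 lower (11.1% of all), and without centring none were higher and 10 lower. The higher ones were the Myc site at 13651 bp at 0.60 (0.33 to 0.87), the Klf4 site at -9356 bp at 0.54 (0.02 to 1.08) and the Pou5f1 site at -4611 bp at 0.60 (-0.26 to 1.58). That Myc site had 5.99 times background in WT, 19.2 in null, 34.5 with NT siRNA and 43.3 with H2A.Z siRNA. The lower ones included Tfcp2l1 at 22368 bp, at -0.75 (-1.34 to -0.14), and Esrrb at 72388 bp, at -0.61 (-1.18 to -0.02). The others were a site past the 3′ end of Tfcp2l1, at 62140 bp, Esrrb at 41845 bp and Lin28a at -2020 and 1398 bp. Their values ran from -0.59 to -0.53, and their intervals included 0. Across the genome, shared sites below 5 times background had a median of -0.18 with 23.0% lower, and those from 5 to 10 times had -0.02 with 16.3% lower.

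At the strongest promoters every interval of the ratio of H2A.Z siRNA to NT siRNA included 0. It was 0.05 (-0.16 to 0.26) and 0.08 (-0.12 to 0.28) at the 2 Klf4 sites, 0.00 (-0.16 to 0.16) at Myc and -0.01 (-0.45 to 0.45) at Sox2, whose summits again lay apart, and -0.28 (-0.58 to 0.02) at Tfcp2l1. At the upstream Nanog site it was -0.11 (-0.30 to 0.08). These intervals leave room for changes of the size of their bounds, and with 1 NT siRNA library the spread between cultures is unknown.

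Of the 40 sites, 18 were called in all 4 lists (45.0%, against 45.9% of all merged sites). Where the 40 sites lay also differed, since 9 were at a member's own start, 5 only at the start of another gene, 14 elsewhere inside a gene and 12 between genes. Sites in all 4 lists had a median of 11.8 times background in WT, from 3.73 to 25.4, whereas the 10 others called in WT had a median of 3.5, from 2.37 to 5.54. Of the sites missing from some list, the highest was the one inside Tcf19 in the Pou5f1 window, at 21.6 times background with NT siRNA.

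Short motifs were searched on both strands of each summit and the 100 bases on either side, and the windows of 3 sites that the comparisons turned on are shown, on the plus strand of mm10, with AP-1 (TGANTCA) and TEAD (GGAATG) matches in capitals. The Nanog window is that of the WT summit, the Pou5f1 window that of the peak found with H2A.Z siRNA, and the Lin28a window that of the WT peak missing in untransfected null.
Nanog upstream site (chr6:122702669-122702869, plus strand): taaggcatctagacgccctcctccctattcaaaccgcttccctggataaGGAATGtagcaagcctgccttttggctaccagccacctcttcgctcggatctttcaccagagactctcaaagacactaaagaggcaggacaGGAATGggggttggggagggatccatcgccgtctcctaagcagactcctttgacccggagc
Pou5f1 intron site (chr17:35507977-35508177, plus strand): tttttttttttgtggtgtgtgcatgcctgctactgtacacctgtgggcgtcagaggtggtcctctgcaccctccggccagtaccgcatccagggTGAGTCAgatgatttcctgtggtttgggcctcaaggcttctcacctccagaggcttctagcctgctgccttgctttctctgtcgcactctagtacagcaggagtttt
Lin28a intron site (chr4:134017429-134017629, plus strand): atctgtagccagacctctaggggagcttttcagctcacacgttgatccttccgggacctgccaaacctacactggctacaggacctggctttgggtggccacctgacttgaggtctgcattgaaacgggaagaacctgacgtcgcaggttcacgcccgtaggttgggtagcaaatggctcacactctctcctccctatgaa
The Nanog window held 2 TEAD matches, the Pou5f1 window 1 AP-1 match and the Lin28a window neither. No letters of the 6 motifs contain those of another, the rest being SP1 (GGGCGG), NF-Y (CCAAT), the E-box (CACGTG) and the octamer bound by OCT4 (ATGCAAAT).

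Among the 32 WT peaks in the windows of the 10 genes, 7 held an AP-1 match (21.9%, against 27.8% of all WT peaks), 8 a TEAD match (25.0%, against 20%) and 7 an SP1 match (21.9%, against 12.1%). An NF-Y match was in 9 (28.1%, against 24.0%), but in 3 of 29 null peaks (10.3%, against 24.2%), 7 of 30 with NT siRNA (23.3%, against 24.1%) and 7 of 34 with H2A.Z siRNA (20.6%, against 23.9%). The SP1 shares in the other lists were 27.6% against 12.9% in null, 23.3% against 12.6% with NT siRNA and 20.6% against 11.2% with H2A.Z siRNA. In the same order, those of AP-1 were 27.6% against 30.3%, 16.7% against 28.9% and 29.4% against 32.0%. Those of TEAD were 31.0% against 20.8%, 23.3% against 19.7% and 26.5% against 19.0%. The E-box was in 1 member peak in null, 1 with NT siRNA and none in WT or with H2A.Z siRNA. The 4 lists share most of these sites, so they are not separate observations, and with so few peaks the shares of these motifs were read in no direction. The octamer was in none of the member peaks of any list, and in 1.05% to 1.20% of all peaks. A match describes the letters in a window and shows no binding.

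Of 38 other genes known from pluripotent cells, 25 had a TSS peak in WT, 25 in null, 24 with NT siRNA and 26 with H2A.Z siRNA, with 22 in all lists and 10 in none. These shares lay near those of all protein-coding genes, of which 67.2% had a TSS peak in WT, 63.8% had one in all lists and 28.8% in none, so the counts show nothing particular to these genes. Tdgf1, which encodes a Nodal co-receptor, was the only one with a TSS peak in null and not in WT, with a pileup of 29, and it was also called with NT siRNA with 22 and with H2A.Z siRNA with 78. Prdm14, which encodes a factor of stem and germ cells, was called in WT with a pileup of 22 and with H2A.Z siRNA with 37, near the threshold of both lists. Dnmt3l, a cofactor of DNA methyltransferases, was called with H2A.Z siRNA alone, with 96. The genes with the highest fold percentiles in WT were Stat3 at 96.4, Lin28b, the homologue of Lin28a, at 95.2, and Fbxo15 and Tbx3, both at 94.8. For comparison, 9 of 10 mesenchymal factors had a TSS peak in every list (Tcf21 had none), while of 10 myogenic factors 7 had one in WT, 8 in null and 5 in each siRNA list (Myog and Pax7 had none and Myod1 had one in null alone). Of 10 neural factors 7 had one in each list but H2A.Z siRNA, where Olig2 made it 8, and Neurod1 and Sox1 had none.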

How the data were processed

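ATAC-seq libraries were prepared by the authors with the Nextera DNA Flex kit, sequenced as paired ends and aligned to mm10 with Bowtie2. Duplicates were removed with Picard and peaks were called with MACS2 on the merged libraries of each group. The deposited fold is a ratio, (summit pileup + 1) over (local background + 1). Each p-value and q-value was deposited by the authors as its −log10. The deposited score column, a display value made from the q-value, was not used. A library of the H2A.Z knockdown experiment, its siRNA not stated, had been left out by the authors as over-tagmented.

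Pileup and local background were solved from fold and p-value under the Poisson model of MACS2, which gave a whole number within 0.05 for 100% of peaks after rounding, a step also checked on simulated data. A site took the highest summit of its peaks in each list, which can lie at different positions. The most frequent local background was taken as the genome-wide background. Peaks on chromosomes 1 to 19, X and Y were kept, starts came from GENCODE M21, and an overlap of 1 bp counted. Promoter sequences came from RefSeq (GRCm38.p6) and matched the genome used. The entries used here did not include Myc or Sall4. Python 3.11.15, SciPy 1.17.1 and pandas 2.3.3 were used.

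The 10 genes and the other gene lists were chosen with earlier results of these data known. Named beside the 10 were other pluripotency genes called in 1 list of a pair, the highest ranked in WT, marker genes lacking a peak where most of their list had one, and neighbours with a start at a counted peak. Alternatives varied the peak threshold, list length, depth, promoter size, start annotation, flank, overlap rule, neighbouring starts and scaling, and pairing by summit was added after seeing the data. No replicate test could be made, and intervals cover counting error only.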

Additional observations from a re-analysis of the deposited data

How the results depend on the processing

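Of 222 values recomputed in the same unit under other settings, 193 stayed within the spread or 1.5 times of the main value and 29 moved. The sign changed for 10 of them, each a ratio or median whose main value was below 0.5 in size. Some of these still counted as unmoved, such as the Klf4 ratio of null to WT, from 0.12 to -0.09 when centred on the strongest 1000 shared sites. The spread used here is not one between replicates. A further 13 were recomputed as differences in rank of fold, in percentile points, and 4 had the other sign, among them the Myc promoter between null and WT, at -10.93 for the highest fold at the site. Without centring, the Sox2 promoter ratio of null to WT went from -0.39 to 0.20 and the Klf4 ratio of the siRNA lists from 0.08 to -0.19. No paired analysis was possible because the libraries of each group had been merged before peak calling, and for the same reason no replicate could be left out. With peaks limited to a −log10 q of 5 or more, the members with a TSS peak in WT and not in Anp32e null numbered 2. With 82567 peaks from each list, 0 members had a TSS peak in H2A.Z siRNA alone of the siRNA pair and 1 in NT siRNA alone, and the member sites in 1 list of that pair numbered 3 and 4, against 7 and 2 in the whole lists. With the pileups of the deeper list thinned binomially to the genome-wide background of the shallower, 4 member sites were in H2A.Z siRNA and not NT siRNA and 2 the other way. With a promoter of 500 bp, 0 members were in WT and not null and 2 in H2A.Z siRNA and not NT siRNA. With a flank of 5 kb, 1 shared site was higher and 2 lower in null, and 1 was higher in H2A.Z siRNA. With 20 kb, 6 sites were in null and not WT and 14 in H2A.Z siRNA and not NT siRNA. With a reciprocal overlap of 50%, 6 sites were in null and not WT, 11 in H2A.Z siRNA and not NT siRNA and 7 the other way. Without centring, the median of member sites went from -0.04 to 0.55 between null and WT, with 10 higher and 0 lower, and between the siRNA lists 0 were higher and 10 lower. With peaks paired by summits within 200 bp, added after seeing the data, the counts stayed at 2 higher and 4 lower in null and 3 higher and 6 lower in H2A.Z siRNA, with medians of 0.06 and -0.11, but the Myc peak at 248 bp took the place of the site at 6637 bp. Centred on the strongest 1000 shared sites, 1 was higher and 8 lower in null. Narrower windows, fewer peaks and other centres change these counts by construction, and other causes were not tested. At the genome-wide background the lowest pileup called ran from 1.80 to 2.83 times background across the lists. The part of depth in the calls at weak sites was not tested.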
